A study of Mus musculus with 30 samples.

Results

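Spleens of 6 female TLR7.1 mice each gave 1 library of inflammatory hemophagocytes (iHPC) and 1 library of Ly6C-high monocytes (Mono), and these 12 of the 30 libraries of the study are compared here, mouse by mouse. Both populations carry the TLR7.1 genotype, so the contrast is one of cell population within the same animals and not one of genotype. Each library came from 500 sorted cells. The cells were live, CD45.2+, SiglecF- and Ly6G- in both cases. Mono were further gated on Ly6C, Ccr2 and CD11b, all positive. The iHPC gate asked for Ly6C- CD31hi VCAMlow F4/80low CD11b+ cells. Mice were 10 to 15 weeks old and were collected in pairs on 3 days, 13, 21 and 26 December. Ages were 15 and 14 weeks in mice 24068 and 24107, 10.3 weeks in mice 24304 and 24308, and 12.4 and 10 weeks in mice 24261 and 24380. The pair collected on day 13 was mouse 24068 and mouse 24107, that on day 21 was mouse 24304 and mouse 24308, and that on day 26 was mouse 24261 and mouse 24380. TLR7.1 red pulp macrophages (RPM, Ly6C- CD31low VCAMhi F4/80+) and WT B6 Mono, 6 libraries each, are used only as levels set beside those of iHPC and Mono. No source used here says how the transgene is driven, and the groups are sorted populations and not a time course.

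TLR7 is an endosomal receptor that detects single-stranded RNA and signals through MyD88 to NF-kB and interferon regulatory factors, and TLR7.1 mice carry extra Tlr7. Ly6C-high monocytes leave the bone marrow through the chemokine receptor CCR2, circulate briefly and can become Ly6C-low patrolling monocytes, dendritic cells or macrophages. Hemophagocytes are phagocytes that engulf whole blood cells, a feature of macrophage activation syndrome. An engulfed red cell delivers hemoglobin, heme, iron, membrane cholesterol and, from nucleated cells, DNA and RNA to the lysosome.

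Library totals ran from 292507 to 1420486 counts in iHPC and from 1157446 to 1719010 in Mono. Levels below are in normalised CPM, which divide each count by the library's total and its TMM factor, and they are given as the lowest to the highest of 6 libraries with the median, and they depend on transcript length. Fold changes are iHPC over Mono, on a log2 scale, from edgeR's quasi-likelihood test with the mouse as a block, n = 6 pairs. The standard error given after ± was derived as the absolute log2 fold change divided by the square root of that test's F. Where a group has few or no reads, the fold change depends on the prior count that edgeR adds. The derived error then depends on it too and can be too small. A gene is called higher or lower when its p, adjusted by the Benjamini-Hochberg method over all genes tested, is under 0.05. In bulk libraries, fewer cells that express a gene and less RNA per cell cannot be told apart. Libraries of iHPC stood apart from their group in both mice of day 26. The library of mouse 24380 was the shallowest, correlated at 0.798 with the mean of the other 5 where those had 0.931 to 0.940, and held 258 genes at less than 10% of the others. The library of mouse 24261 lacked basophil transcripts that the other 5 held, as given with the other cell types below. Results are given without these mice where that changes them.

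The gate genes followed the sort in every mouse. Pecam1, which encodes the adhesion molecule CD31, was at 416 to 623 CPM (median 567) in iHPC and 4.61 to 18.3 (median 13.3) in Mono (log2 fold change 5.38 ± 0.24; adjusted p = 6.71e-09). Itgax, the gene of the integrin CD11c and no part of either gate, was at 534 to 760.1 CPM (median 582) in iHPC and 11.7 to 15.8 (median 13.4) in Mono (log2 fold change 5.43 ± 0.16; adjusted p = 3.65e-10). For Ccr2, the receptor that lets monocytes leave the marrow, the values were 1.91 to 23.8 CPM (median 11.5) in iHPC and 1399 to 1672 (median 1509.5) in Mono (log2 fold change -7.17 ± 0.36; adjusted p = 1.64e-08). The groups did not overlap for any of these 3 genes or for Ly6c2, at 3.48 to 23.0 CPM (median 8.53) in iHPC and 439.8 to 591 (median 492) in Mono. Vcam1 separated the groups too, but at a low level, 11.8 to 56.2 CPM (median 23.6) in iHPC and 0 to 5.36 (median 0.910) in Mono. Itgam, the CD11b gene of both gates, was lower in iHPC with overlapping groups and lost its call with all 30 libraries and the block, 143 to 284 CPM (median 175) in iHPC and 279.6 to 341 (median 323) in Mono (log2 fold change -0.72 ± 0.15). Adgre1, which encodes F4/80, and Tlr7 itself were not called, with log2 fold changes of 0.22 and 0.24. Adgre1 was lower in iHPC in mice 24304 and 24308 and higher in the others. Tlr7 was higher in iHPC in every mouse, from 940 against 937 CPM in mouse 24304 to 1127 against 756 CPM in mouse 24107. Its call depended on the setting, as given at the end. Ptprc, the gene of the pan-leukocyte antigen CD45, was 2256 to 3059 CPM (median 2539.8) in iHPC and 1456 to 1706 (median 1542) in Mono, with every iHPC library above every Mono library.

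**Figure D1:**
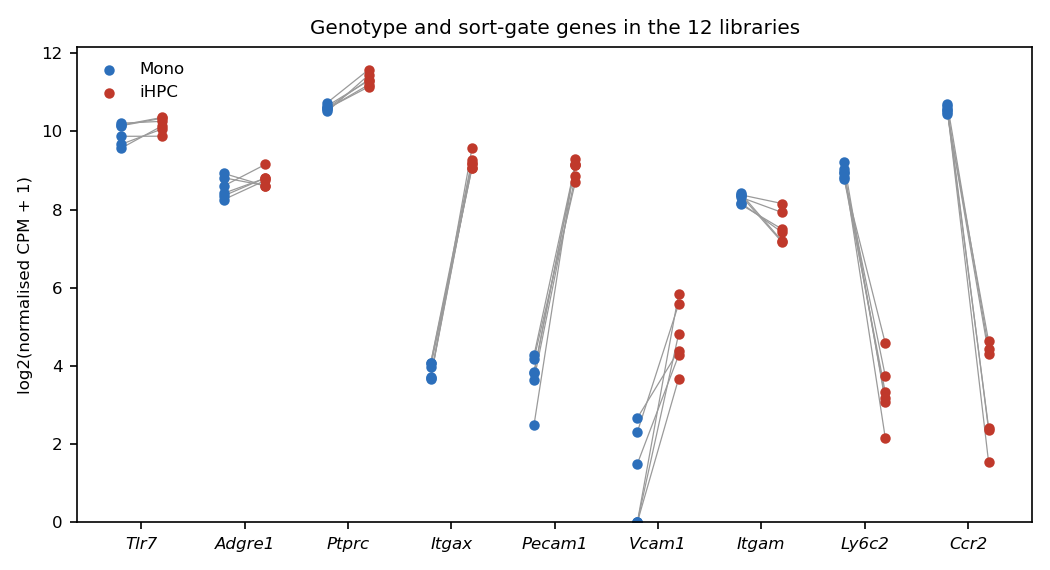
Normalised CPM of the genotype and gate genes in the 12 libraries, on a log2 scale after adding 1 CPM. Each point is 1 library and each grey line joins the Mono (blue) and iHPC (red) library of 1 mouse, and the lines of Itgax, Pecam1 and Vcam1 all rise while those of Ly6c2 and Ccr2 all fall.

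Against Mono of the same spleens, iHPC held less mRNA of classical monocyte, mitotic, chemoattractant receptor, coagulation and interferon-stimulated genes, with 17 of 20, 31 of 36, 12 of 18, 13 of 16 and 42 of 55 tested genes lower. They held more mRNA of red pulp macrophage, Ly6C-low monocyte, integrin, inhibitory receptor and ribosomal protein genes, with 14 of 18, 16 of 25, 9 of 15, 15 of 25 and 34 of 46 tested genes higher. Of 9843 genes that passed the filter on low counts, 2443 were called higher in iHPC (24.8%) and 2555 lower (26.0%). These shares are the background for every list below, together with a median log2 fold change over all genes of -0.00489. Changes of 2-fold or more were 1377 of the higher and 1601 of the lower calls, and changes of 16-fold or more 183 and 153. All 6 iHPC libraries lay above all 6 Mono libraries for 1581 genes (16.1%) and below them for 1771 (18.0%). Scaled for transcript length (TPM, the level per transcript length), the genes called higher made up 41.0% of the iHPC transcriptome and 20.5% of that of Mono. The genes called lower made up 16.6% and 38.4%.

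**Figure D2:**
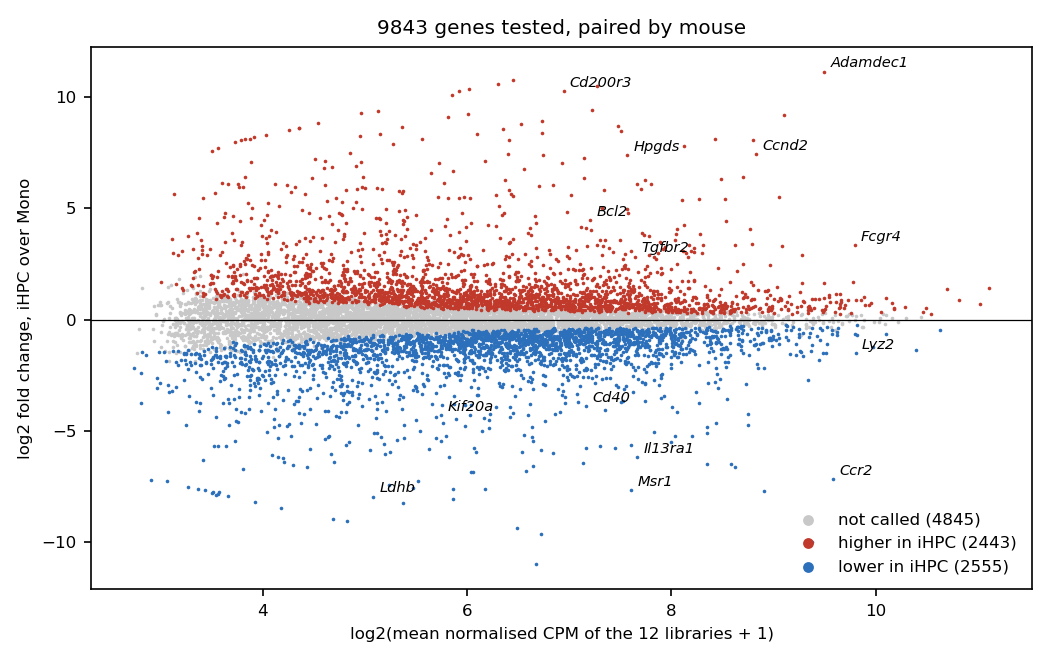
Log2 fold change of iHPC over Mono against the mean level of each of the 9843 genes tested. Red points were called higher (2443), blue points lower (2555) and grey points not called, and the fitted values along the outer upper and lower edges belong to genes with few or no reads in one group, where they depend on the prior count.

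The largest rises included several surface proteins that are better known from the nervous system or from other blood cells. Ptprm is a receptor phosphatase that binds its own kind on neighbouring cells. It was at 136 to 207 CPM (median 172) in iHPC and 0 in all 6 Mono libraries, at least 532-fold higher in iHPC. Negr1, a neuronal adhesion protein with a lipid anchor, was at 86.7 to 194 CPM (median 158) in iHPC and 0 in all 6 Mono libraries, at least 468-fold higher in iHPC. Adam23, a membrane protein of the disintegrin family without protease activity, was at 234 to 494 CPM (median 275) in iHPC and 0 to 0.659 (median 0) in Mono, a ratio of pooled counts, iHPC over Mono, of 2616 (95% exact counting interval 469 to 103390). None of these 3 genes had more than 1 read in all Mono libraries together. Bounds against a group at 0 use a floor of 3 counts over its 6 libraries. The libraries carried no molecular identifiers, so such intervals and bounds describe the error of counting reads and nothing else. Cadm1, an adhesion molecule of synapses and mast cells, was at 712 to 1027 CPM (median 892) in iHPC and 0 to 7.89 (median 2.75) in Mono (log2 fold change 8.09 ± 0.41). Itga9, the integrin alpha 9 gene, was at 215 to 483 CPM in iHPC and 0 to 1.21 in Mono, a ratio of pooled counts, iHPC over Mono, of 841 (95% exact counting interval 287 to 4084). Adamdec1, a secreted metalloprotease of mature macrophages, had the highest level of these genes in iHPC. It was at 1169.9 to 1692 CPM (median 1445) in iHPC and 0 to 3.30 (median 0) in Mono (log2 fold change 11.14 ± 0.39; adjusted p = 1.09e-09). Its median was 0 CPM in WT Mono and 420.2 CPM in RPM.

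The largest falls included genes of matrix, proteases and receptors. Msr1, the class A scavenger receptor, was at 0 to 4.77 CPM (median 1.29) in iHPC and 340.1 to 442 (median 376) in Mono (log2 fold change -7.64 ± 0.33; adjusted p = 5.81e-09). Serpinb8, an intracellular inhibitor of serine proteases, was at 0 to 1.15 CPM in iHPC and 60.8 to 106 in Mono, a ratio of pooled counts, Mono over iHPC, of 480.3 (95% exact counting interval 85.9 to 18995). Prtn3, a neutral protease of myeloid granules, was at 0 to 1.39 CPM in iHPC and 77.5 to 169 in Mono, a ratio of pooled counts, Mono over iHPC, of 346 (95% exact counting interval 95.5 to 2860.5). No iHPC library reached the lowest Mono library for these genes. Clec5a, a lectin receptor of inflammatory monocytes, was at 0 to 1.15 CPM in iHPC and 124 to 217 in Mono, a ratio of pooled counts, Mono over iHPC, of 1058 (95% exact counting interval 189.7 to 41829).

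On the length-scaled level, where genes can be compared with each other, the largest gain was that of Fcgr4, from 373 ± 116 TPM in Mono to 3557 ± 451 in iHPC (mean ± SD, n = 6). Fcgr4 encodes an activating receptor for IgG2 antibodies. Among the tested genes the next were mt-Rnr2, a mitochondrial ribosomal RNA, from 1435 to 4277 TPM, and C1qb, a chain of the complement protein C1q, from 397 to 2816 TPM (means, n = 6). The other mitochondrial ribosomal RNA, mt-Rnr1, rose from 879 to 3196 TPM. Wfdc17, a small secreted protein of activated macrophages, rose from 1817 to 3744 TPM. Lst1, a small membrane protein of leukocytes, rose from 1684 to 3915 TPM. Fcer1g, the signalling chain shared by activating Fc receptors, rose from 1977 to 3727 TPM. Fcgr4 and Fcer1g were thus among the most abundant transcripts that gained, while Fcgr3, given below, fell. The largest loss was that of Lyz2, the lysozyme of myeloid cells, from 2912 to 999 TPM. S100a4, a calcium-binding protein of motile cells, fell from 1822 to 430.4 TPM. Hp, the hemoglobin-binding protein haptoglobin, fell from 1466 to 87.6 TPM. Of all genes tested 20 held 1 read per exonic base or more in at least 1 library, Fcgr4, Wfdc17, Lst1, Fcer1g, Lyz2 and S100a4 among them. No source used here says whether duplicate reads were removed, and if they were, the differences of such genes are compressed. In mouse 24380, whose iHPC library was shallow, the within-mouse difference of Fcgr4 on the scale of log2(CPM + 1) was 4.63, against 2.80 to 3.44 in the other 5 mice. This mouse also had the highest difference, far from the other 5, for mt-Rnr2 (2.86), mt-Rnr1 (3.30) and Wfdc17 (2.05). The means of these genes over 6 mice include that library, and its part in their rank was not tested.

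**Figure D3:**
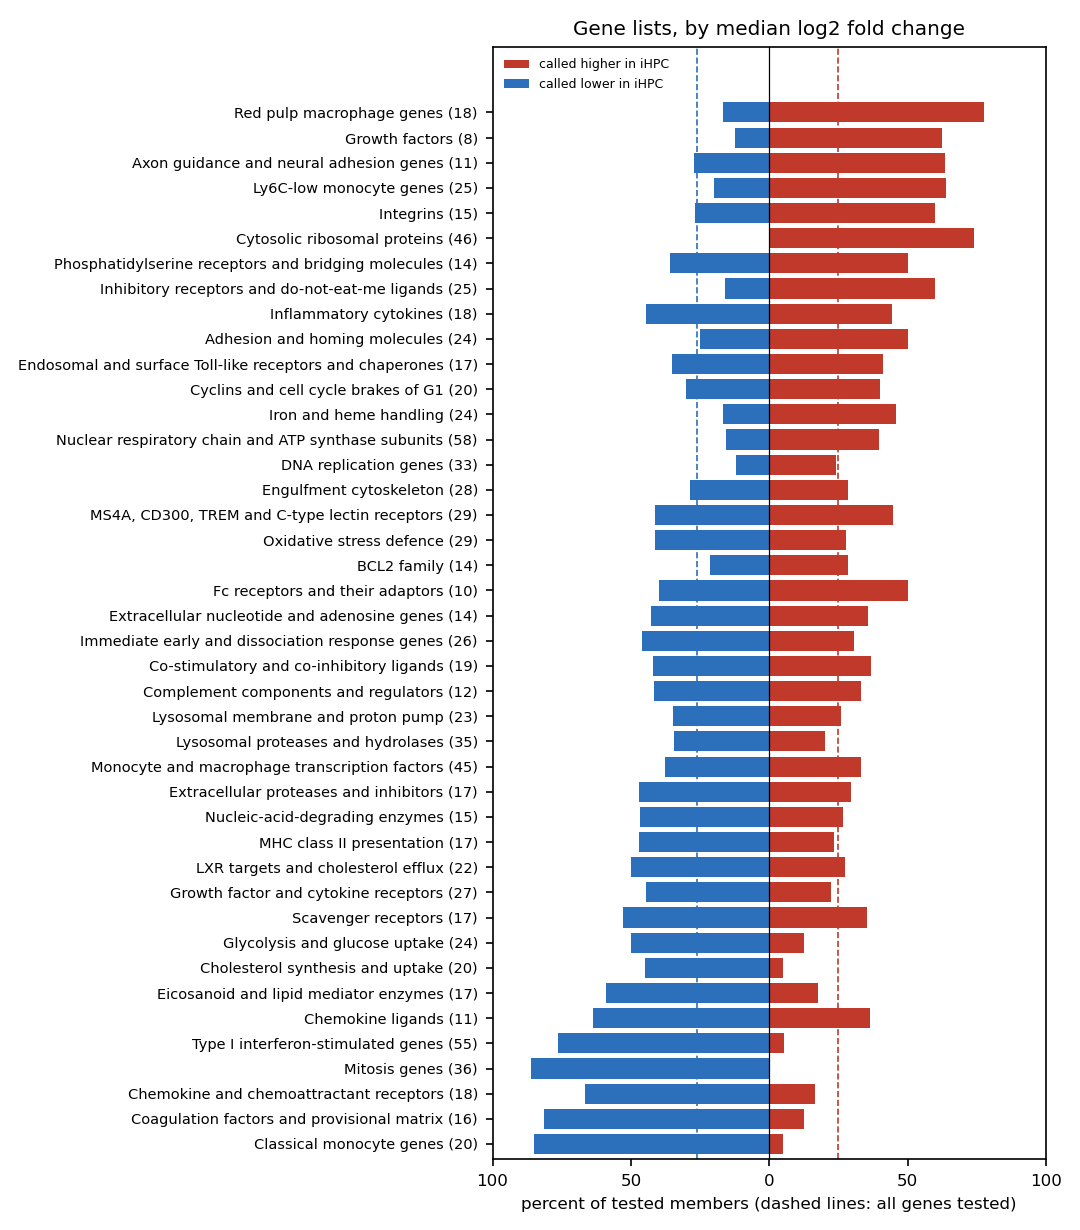
Share of the tested members of each gene list called higher (red, right) or lower (blue, left) in iHPC, for the lists with at least 8 tested members that describe identity or function, ordered by median log2 fold change. The number of tested members is in parentheses, and the dashed lines mark the shares over all genes, 24.8% and 26.0%.

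Classical monocyte genes were mostly lower in iHPC, and genes of both Ly6C-low monocytes and red pulp macrophages mostly higher. Mono were sorted as positive for Ly6C and Ccr2 and iHPC as negative for Ly6C. The part of these gates in the counts was not tested. Of 20 classical monocyte genes, all tested, 17 were lower and 1 was higher (2 without mouse 24304), with a median log2 fold change of -4.21. The exception was Ms4a6c, a four-pass membrane protein, at 751 to 1543 CPM in iHPC and 583 to 702 in Mono (log2 fold change 0.55 ± 0.12). Of 26 genes of Ly6C-low monocytes 25 were tested, 16 were higher and 5 lower (median 1.47). The latter count was 3 without mouse 24304. Of 26 red pulp macrophage genes 18 were tested, 14 were higher and 3 lower (median 2.47). The summed level of these 26 genes was 5048 to 7186 CPM (median 6285) in iHPC and 1310 to 1529 (median 1387) in Mono. In RPM it was 13588.5 to 28850 CPM (median 20278), so every iHPC library lay above Mono and below RPM.

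Within the Ly6C-low program the members did not move together. Dusp16, a phosphatase that acts on MAP kinases, was at 646 to 812 CPM (median 695) in iHPC and 2.98 to 13.2 (median 9.50) in Mono (log2 fold change 6.31 ± 0.21; adjusted p = 9.13e-10). Slc12a2, a cotransporter of sodium, potassium and chloride, was at 233 to 659 CPM in iHPC and 3.03 to 23.8 in Mono (log2 fold change 4.81 ± 0.35). Neither gene had overlapping groups. Ceacam1, an inhibitory adhesion receptor, went the other way, at 15.3 to 61.2 CPM in iHPC and 288 to 406 in Mono (log2 fold change -2.96 ± 0.22). Cx3cr1, the fractalkine receptor by which patrolling monocytes are often marked, was also lower. It was at 142 to 337 CPM (median 191) in iHPC and 188 to 358 (median 299) in Mono (log2 fold change -0.51 ± 0.13; adjusted p = 0.00460). The groups overlapped, and the call was lost in counts thinned to the smallest library and with all 30 libraries in the fit. The median level in iHPC was below that in Ly6C-high monocytes.

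Transcription factors split, 15 of 45 tested higher and 17 lower (median -0.31; 54 listed). Those that rose included lipid-activated nuclear receptors and Maf factors of macrophages. Nr1h3, which encodes the oxysterol receptor LXR alpha, was at 473 to 779 CPM (median 499.6) in iHPC and 9.53 to 79.7 (median 41.6) in Mono (log2 fold change 3.86 ± 0.37; adjusted p = 3.78e-06). Pparg, a receptor for fatty acids, was at 266 to 666 CPM in iHPC and 13.7 to 66.4 in Mono (log2 fold change 3.57 ± 0.34). Maf, which supports macrophage identity, was at 93.9 to 299.5 CPM in iHPC and 14.4 to 46.5 in Mono (log2 fold change 2.04 ± 0.32). All iHPC libraries lay above all Mono libraries for these 3 genes. Among the falls were factors of monocyte, dendritic and lymphoid cells. Irf8, needed by monocyte and dendritic cell progenitors, was at 76.3 to 139 CPM (median 94.2) in iHPC and 309 to 416 (median 363) in Mono (log2 fold change -1.92 ± 0.15; adjusted p = 5.28e-07). Irf4, a factor of dendritic and B cells, was at 1.70 to 5.22 CPM in iHPC and 20.4 to 62.2 in Mono (log2 fold change -3.48 ± 0.40). Runx3, a factor of lymphoid and dendritic cells, was at 2.86 to 16.2 CPM in iHPC and 26.7 to 56.8 in Mono (log2 fold change -2.56 ± 0.39). No iHPC library reached the Mono range for these 3 genes or for Cebpb, a factor that keeps Ly6C-low monocytes alive. Cebpb was at 165 to 389 CPM in iHPC and 457 to 716 in Mono (log2 fold change -1.30 ± 0.12). Tfec, a relative of the lysosomal regulator TFEB that is made in macrophages, was at 0 to 7.49 CPM in iHPC and 59.4 to 130.5 in Mono, a ratio of pooled counts, Mono over iHPC, of 257 (95% exact counting interval 71.0 to 2129). Nr4a1, required for Ly6C-low monocytes, was not called (log2 fold change -0.31) but was called lower without mice 24261 and 24380 (-0.57). Its relative Nr4a2 was at 0 to 1.74 CPM in iHPC and 11.6 to 47.5 in Mono, a ratio of pooled counts, Mono over iHPC, of 47.8 (95% exact counting interval 16.1 to 233).

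Among cell cycle genes, those of mitosis were mostly lower in iHPC, while those of G1 and DNA replication went in both directions. D-type cyclins start the cycle by activating CDK4 and CDK6, replication factors copy the DNA in S phase, and mitotic genes act as a cell divides. Ccnd2, the cyclin D2 gene, was at 799 to 1116 CPM (median 842) in iHPC and 1.75 to 15.8 (median 3.60) in Mono (log2 fold change 7.45 ± 0.31; adjusted p = 4.57e-09). Ccnd1 was at 33.2 to 68.7 CPM in iHPC and 0.659 to 7.32 in Mono (log2 fold change 3.76 ± 0.43). Their partner kinase Cdk6 was at 41.2 to 56.3 CPM in iHPC and 2.64 to 11.7 in Mono (log2 fold change 3.02 ± 0.34). Every iHPC library exceeded every Mono library for these 3 genes. The remaining D cyclin went the other way. Ccnd3 was at 30.0 to 122 CPM (median 89.3) in iHPC and 306 to 446 (median 339) in Mono (log2 fold change -2.01 ± 0.23; adjusted p = 1.38e-05). In WT Mono the medians of Ccnd1, Ccnd2 and Ccnd3 were 1.33, 5.04 and 349 CPM, and in RPM 39.8, 457 and 57.0 CPM. Brakes of the cycle split as well. Cdkn1b, the p27 gene, was higher, at 102 to 318 CPM in iHPC and 26.7 to 52.3 in Mono (log2 fold change 1.86 ± 0.19). Cdkn1a, the p21 gene, was lower, at 0 to 49.5 CPM in iHPC and 159.9 to 261 in Mono (log2 fold change -3.13 ± 0.35). Of 24 cyclins, kinases and inhibitors of the G1 phase 20 were tested, 8 were higher and 6 lower (median 0.35), with 3 lower without mouse 24308.

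Of 36 mitosis genes, all tested, 0 were higher and 31 lower (median log2 fold change -1.55). Kif20a, a motor needed for cytokinesis, was at 0 to 12.6 CPM (median 2.69) in iHPC and 66.5 to 140.2 (median 98.5) in Mono (log2 fold change -4.30 ± 0.37; adjusted p = 1.22e-06). Cdc20, which opens anaphase, was at 3.44 to 30.4 CPM in iHPC and 108 to 184 in Mono (log2 fold change -3.03 ± 0.35). Ccnb1, the mitotic cyclin B1 gene, was at 7.49 to 25.8 CPM in iHPC and 78.1 to 134 in Mono (log2 fold change -2.47 ± 0.24). All iHPC libraries lay below all Mono libraries for these 3 genes. Leaving out mice 24261 and 24380 together left 28 mitosis genes lower and 0 higher. The median within-mouse difference of the list was -0.52 in mouse 24304 and -0.87 in mouse 24308, with 7 of 36 members higher in each. In the other mice it was -1.53 to -2.83, with 0 members higher. The 5 mitosis genes not called were Mki67, Kif23, Ndc80, Spc25 and Ttk. Mki67, the proliferation marker Ki-67, was at 183 to 383 CPM (median 195) in iHPC and 198 to 407 (median 313) in Mono (log2 fold change -0.36 ± 0.24; adjusted p = 0.241). Its groups overlapped widely. Top2a, which untangles replicated DNA, was at 128 to 288 CPM in iHPC and 186 to 397 in Mono (log2 fold change -0.67 ± 0.21; adjusted p = 0.0194). That call was lost when mouse 24068, 24107 or 24261 was left out.

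Of the DNA replication genes, 8 of 33 tested were higher (24.2%) and 4 lower (12.1%), beside 24.8% and 26.0% of all genes (median of the list 0.28; 36 listed). The higher ones were Mcm2, Mcm4, Pcna, Rfc3, Pola1, Pold1, Lig1 and Dut, and the lower ones Mcm10, Cdc45, Rfc5 and E2f2. Without mouse 24308, 5 were higher, and without mouse 24107, 2 were lower. The median within-mouse difference of the list changed sign between mice. It was -0.49 in mouse 24107, -0.85 in mouse 24380 and 0.25 to 0.89 in the others. Mcm2, a subunit of the replicative helicase, was at 33.2 to 82.5 CPM (median 62.9) in iHPC and 9.15 to 41.9 (median 16.6) in Mono (log2 fold change 1.63 ± 0.40; adjusted p = 0.00434). Lig1, which seals nicks, was at 49.5 to 93.6 CPM in iHPC and 4.27 to 50.4 in Mono (log2 fold change 1.53 ± 0.37). The groups of both genes overlapped. The call of Pold1, a subunit of a DNA polymerase, was lost without mouse 24261, 24308 or 24380. Pcna, the sliding clamp, was at 81.7 to 116 CPM in iHPC and 45.9 to 73.0 in Mono (log2 fold change 0.71 ± 0.18) without overlap, and its call was lost in counts thinned to the smallest library. The share of cells in each phase was not measured.

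**Figure D4:**
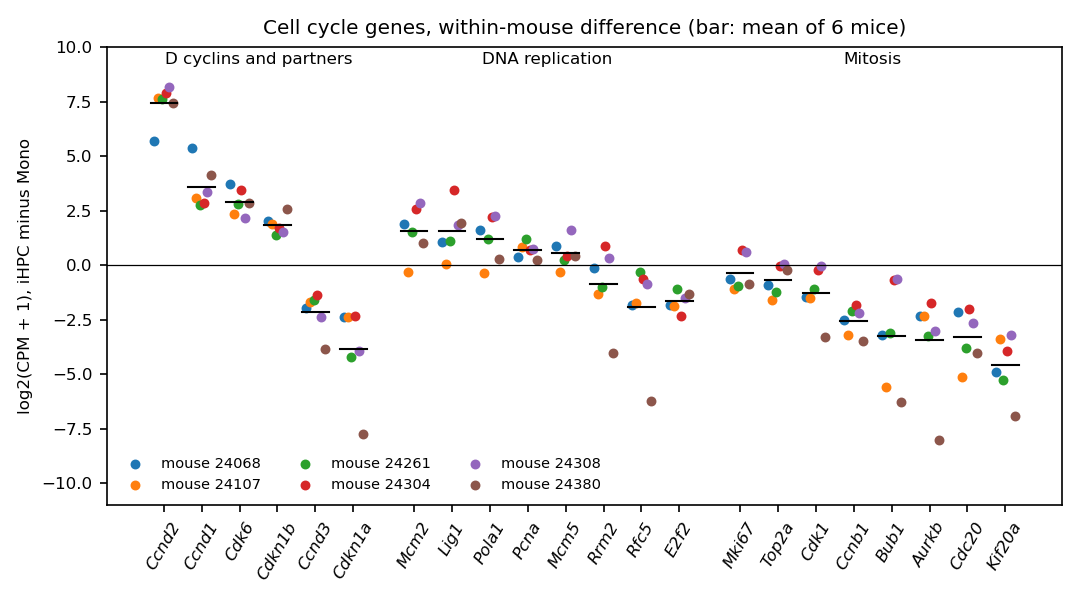
Within-mouse difference, iHPC minus Mono, of log2(CPM + 1) for 22 cell cycle genes, in 3 groups. Each point is 1 of 6 mice and each bar their mean, and Ccnd2, Ccnd1, Cdk6 and Cdkn1b lie above 0 in all 6 mice, Ccnb1, Cdc20 and Kif20a below 0 in all 6, and replication genes on both sides.

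Interferon-stimulated genes were mostly lower in iHPC. Type I interferon acts through the factor ISGF3, which binds the interferon-stimulated response element (ISRE) in their promoters. Of 56 genes 55 were tested, 42 were lower and 3 higher (median log2 fold change -1.16). Irf7, the factor that amplifies interferon production, was at 76.5 to 180.0 CPM (median 137) in iHPC and 475 to 661 (median 576) in Mono (log2 fold change -2.17 ± 0.17; adjusted p = 7.44e-07). Slfn1, a Schlafen gene first described in quiescent lymphocytes, was at 5.56 to 24.8 CPM in iHPC and 369 to 562 in Mono (log2 fold change -5.21 ± 0.26). Slfn4, a Schlafen gene of monocytes, was at 0 to 27.7 CPM in iHPC and 48.7 to 159 in Mono (log2 fold change -4.29 ± 0.56). All 6 iHPC libraries were below all Mono libraries for these 3 genes. Ifnar1, a chain of the type I interferon receptor, was itself lower, at 47.7 to 101 CPM in iHPC and 121 to 175 in Mono (log2 fold change -0.95 ± 0.20). The 3 higher genes were Rsad2, Isg20 and Ifih1, the last named after its value was seen. The call of Isg20 was lost with all 30 libraries in the fit. Rsad2, the antiviral enzyme viperin, was at 197 to 621 CPM (median 448) in iHPC and 70.3 to 159 (median 121) in Mono (log2 fold change 1.75 ± 0.26). Median Rsad2 levels were 164 CPM in WT Mono and 561 CPM in RPM. Cxcl10, a chemokine for activated T cells, was at 0 to 98.5 CPM (median 4.25) in iHPC and 159 to 277 (median 218) in Mono (log2 fold change -4.22 ± 0.67). Other widely used members of the list lay closer together. Ifit1, which binds foreign RNA caps, was at 37.4 to 187 CPM in iHPC and 64.9 to 202 in Mono (log2 fold change -0.61 ± 0.17; adjusted p = 0.0112), a call lost without mouse 24308. Isg15, a ubiquitin-like protein, was at 30.0 to 108 CPM in iHPC and 71.2 to 111 in Mono (log2 fold change -0.39 ± 0.21; adjusted p = 0.134). Ifit3, a partner of Ifit1, was at 33.7 to 300.2 CPM in iHPC and 54.1 to 203 in Mono (log2 fold change 0.14 ± 0.22; adjusted p = 0.633). The groups of Ifit1, Isg15 and Ifit3 overlapped.

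The letters AANNGAAAC, a core of the ISRE, were searched on both strands in the 250 bases before the start of each gene in RefSeq's table for GRCm38.p6. They were found in 18 of 42 interferon-stimulated genes with a promoter entry (42.9%), against 5.27% of the 7418 tested genes with an entry. By direction they occurred in 13 of 33 members called lower, 4 of 6 not called and 1 of 3 called higher. Over all genes, 5.07% of those called higher, 6.96% of those called lower and 4.45% of the rest held them. A match describes letters and is not a measured binding site. The 5 stretches printed here belong to 1 gene that was higher (Rsad2), 2 that were lower (Cxcl10 and Ifit1) and 2 that were not called (Isg15 and Ifit3), because they place the same letters before genes that moved differently. Each runs 5′ to 3′ on the gene's strand and ends at the base before its start, and capitals mark the matches, read on either strand.
Rsad2: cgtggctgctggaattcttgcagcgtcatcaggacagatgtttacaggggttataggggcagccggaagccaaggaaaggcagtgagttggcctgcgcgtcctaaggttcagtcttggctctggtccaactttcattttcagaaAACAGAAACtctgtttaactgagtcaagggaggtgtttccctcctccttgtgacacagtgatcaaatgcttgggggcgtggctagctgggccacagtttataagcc
Ifit1: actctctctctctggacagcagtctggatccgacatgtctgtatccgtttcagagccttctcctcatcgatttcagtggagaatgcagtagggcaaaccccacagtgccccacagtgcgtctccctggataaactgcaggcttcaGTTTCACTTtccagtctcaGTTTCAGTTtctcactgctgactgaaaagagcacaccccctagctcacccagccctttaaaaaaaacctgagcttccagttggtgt
Ifit3: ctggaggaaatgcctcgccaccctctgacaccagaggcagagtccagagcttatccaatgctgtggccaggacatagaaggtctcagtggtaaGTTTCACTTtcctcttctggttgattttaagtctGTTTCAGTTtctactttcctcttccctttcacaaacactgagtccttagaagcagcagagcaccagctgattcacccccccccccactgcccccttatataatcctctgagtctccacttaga
Isg15: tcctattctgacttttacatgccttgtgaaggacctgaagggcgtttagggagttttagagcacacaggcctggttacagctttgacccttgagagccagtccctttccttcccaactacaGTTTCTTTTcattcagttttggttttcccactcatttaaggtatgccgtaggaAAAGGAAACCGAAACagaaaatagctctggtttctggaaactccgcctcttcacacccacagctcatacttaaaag
Cxcl10: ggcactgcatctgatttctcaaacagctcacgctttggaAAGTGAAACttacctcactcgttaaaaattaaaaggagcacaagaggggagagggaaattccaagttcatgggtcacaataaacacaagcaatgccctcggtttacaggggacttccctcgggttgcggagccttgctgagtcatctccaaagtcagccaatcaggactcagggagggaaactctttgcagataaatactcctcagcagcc
The stretch of Rsad2 is chr12:26456453-26456702, minus strand. That of Ifit1 is chr19:34640639-34640888, plus strand, and that of Ifit3 is chr19:34583279-34583528, plus strand. That of Isg15 is chr4:156200819-156201068, minus strand, and that of Cxcl10 is chr5:92348890-92349139, minus strand. Of the 3 genes with more than 1 match, Ifit3 and Isg15 were not called and Ifit1 was lower. Rsad2 and Cxcl10, with 1 match each, moved in opposite directions.

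Receptors that sense nucleic acids and bacteria changed unevenly, 7 of 17 tested Toll-like receptor genes and chaperones higher and 6 lower (median 0.36; 20 listed). Tlr8, which like TLR7 reads RNA breakdown products, was at 142 to 247 CPM (median 160.2) in iHPC and 50.7 to 128 (median 82.0) in Mono (log2 fold change 1.06 ± 0.19). Slc15a3, a lysosomal peptide transporter, was at 158 to 216 CPM in iHPC and 36.2 to 72.8 in Mono (log2 fold change 1.80 ± 0.19). Cd180, a surface relative of the Toll-like receptors, was at 177 to 304 CPM in iHPC and 59.5 to 92.3 in Mono (log2 fold change 1.61 ± 0.14). These 3 genes rose without overlap. Tlr13, a receptor for bacterial ribosomal RNA, was at 65.3 to 179 CPM in iHPC and 341 to 429 in Mono (log2 fold change -1.59 ± 0.18). Cd14, the lipopolysaccharide co-receptor, was at 85.9 to 203 CPM in iHPC and 521 to 715 in Mono (log2 fold change -2.11 ± 0.20). Unc93b1, the chaperone that carries TLR7 to the endosome, was at 361 to 612 CPM in iHPC and 744 to 837 in Mono (log2 fold change -0.60 ± 0.12). The last 3 fell without overlap, while Tlr7 was not called.

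Inflammatory cytokine genes were divided, 8 higher and 8 lower of 18 tested (median 0.60; 32 listed). Il12b, the p40 chain of interleukins 12 and 23, was at 11.2 to 40.0 CPM (median 29.3) in iHPC and 0 in all 6 Mono libraries, at least 98.0-fold higher in iHPC. Il1b was at 1016 to 2074 CPM (median 1253) in iHPC and 299 to 518 (median 411) in Mono (log2 fold change 1.70 ± 0.18). Il1rn, which encodes its natural antagonist, was at 18.7 to 105 CPM in iHPC and 139 to 246 in Mono (log2 fold change -1.56 ± 0.20). The cytokine and its antagonist thus moved in opposite directions without overlap. Il6 was at 10.5 to 143 CPM in iHPC and 3.50 to 9.91 in Mono (log2 fold change 3.68 ± 0.40). Basophils also make Il6, and it is among the basophil markers counted below. Its lowest iHPC value was that of mouse 24261, and without that mouse its log2 fold change was 4.07 ± 0.29. Tnfsf15, a ligand that costimulates T cells, was higher, at 12.5 to 71.1 CPM in iHPC and 0 to 2.91 in Mono (log2 fold change 4.44 ± 0.66). Tnfsf13, the B lineage survival factor APRIL, was lower, at 0 to 4.35 CPM in iHPC and 22.5 to 38.2 in Mono (log2 fold change -3.74 ± 0.50). Of 23 chemokine ligands 11 were tested, 4 were higher and 7 lower (median -1.10). Ccl3 and Ccl4, 2 related inflammatory chemokines, both rose. Ccl3 was at 181 to 509.9 CPM in iHPC and 43.1 to 144 in Mono (log2 fold change 2.14 ± 0.16), a call lost with all 30 libraries and no block. Ccl4 was at 261 to 558 CPM in iHPC and 22.6 to 90.4 in Mono (log2 fold change 2.93 ± 0.19). Cxcl14, a chemokine of epithelia, was at 15.0 to 45.2 CPM in iHPC and 0 in all 6 Mono libraries, at least 90.2-fold higher in iHPC.

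Receptors for chemoattractants were mostly lower, 12 of 18 tested against 3 higher (median -1.75; 31 listed), and 5 of 19 were higher without mouse 24380. C5ar1, the receptor for the complement fragment C5a, was at 0 to 11.8 CPM (median 4.12) in iHPC and 72.5 to 122 (median 99.7) in Mono (log2 fold change -4.36 ± 0.42; adjusted p = 3.95e-06). Ltb4r1, the leukotriene B4 receptor, was at 0 to 8.02 CPM in iHPC and 174 to 261 in Mono (log2 fold change -5.84 ± 0.35). Ptafr, the receptor for platelet-activating factor, was at 0 to 2.86 CPM in iHPC and 30.3 to 88.5 in Mono (log2 fold change -5.47 ± 0.52). Groups did not overlap for these 3 genes. The 3 that rose with all mice in the fit were Fpr1 and Fpr2, receptors for formylated peptides, and P2ry14, a receptor for UDP-glucose. Fpr1 was at 262 to 450.4 CPM (median 294) in iHPC and 14.5 to 47.1 (median 27.9) in Mono (log2 fold change 3.57 ± 0.19; adjusted p = 2.25e-08). Fpr2 was at 264 to 723 CPM in iHPC and 29.9 to 74.5 in Mono (log2 fold change 3.01 ± 0.16). P2ry14 was at 111 to 220.0 CPM in iHPC and 10.4 to 39.4 in Mono (log2 fold change 2.81 ± 0.25). All 6 iHPC libraries lay above all Mono libraries for each of them.

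Growth factor and cytokine receptors were more often lower than higher, 12 against 6 of 27 tested (median -0.50; 36 listed). Il13ra1, a chain of the receptor for interleukins 4 and 13, was at 0 to 23.8 CPM (median 3.02) in iHPC and 322 to 436 (median 421) in Mono (log2 fold change -6.18 ± 0.44; adjusted p = 2.88e-07). Met, the hepatocyte growth factor receptor, was at 0 to 6.87 CPM in iHPC and 35.1 to 61.3 in Mono (log2 fold change -5.35 ± 0.63). Csf1r, the receptor that sustains monocytes and macrophages, was lower by less, at 404 to 655 CPM in iHPC and 663 to 1039.8 in Mono (log2 fold change -0.77 ± 0.11). Receptors for TGF-beta and for type III interferon went the other way. Tgfbr2 was at 285 to 431 CPM (median 349) in iHPC and 33.3 to 68.7 (median 47.2) in Mono (log2 fold change 2.84 ± 0.19; adjusted p = 1.61e-07). Ifnlr1 was at 18.7 to 80.6 CPM in iHPC and 0 to 2.91 in Mono (log2 fold change 5.26 ± 0.54). None of these 5 genes had overlapping groups. Growth factor genes were few: 8 of 23 were tested, 5 higher and 1 lower (median 1.96). Pdgfb, a platelet-derived growth factor chain, was at 83.0 to 155 CPM in iHPC and 0 to 11.7 in Mono (log2 fold change 4.52 ± 0.46). Pdgfc, of the same family, was at 11.9 to 41.2 CPM in iHPC and 0 in all 6 Mono libraries, at least 59.9-fold higher in iHPC. Nrg1, a ligand of ErbB receptors, was the one that fell, at 0 to 8.69 CPM in iHPC and 28.7 to 84.0 in Mono (log2 fold change -4.16 ± 0.66).

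Integrins were higher in 9 and lower in 4 of 15 tested cases (median 0.90; 21 listed). Itga8, a receptor for RGD-containing matrix proteins, was at 11.4 to 67.4 CPM (median 20.7) in iHPC and 0 to 3.60 (median 0.880) in Mono (log2 fold change 4.57 ± 0.56). Itgb1, the beta chain that integrins alpha 8 and alpha 9 share, was at 639.8 to 790.0 CPM in iHPC and 274 to 433 in Mono (log2 fold change 0.90 ± 0.12). So both alpha chains and their common partner rose without overlap. Itgb7, the beta chain of gut-homing integrins, was lower, at 11.2 to 74.5 CPM in iHPC and 378 to 519 in Mono (log2 fold change -3.41 ± 0.22). Itga1, a collagen receptor chain, was lower too, at 0.954 to 5.95 CPM in iHPC and 21.4 to 56.4 in Mono (log2 fold change -3.52 ± 0.46). Adhesion and homing molecules gave 12 higher and 6 lower of 24 tested (median 0.46; 34 listed). Jaml, an adhesion molecule used in crossing epithelia, was at 0 to 6.87 CPM in iHPC and 31.5 to 118 in Mono (log2 fold change -5.39 ± 0.56). Selplg, which encodes the selectin ligand PSGL-1, was at 524 to 754 CPM in iHPC and 807 to 1138 in Mono (log2 fold change -0.54 ± 0.12). Both fell without overlap. Among 32 axon guidance and neural adhesion genes 11 were tested, 7 higher and 3 lower (median 1.69). Ntn4, a secreted netrin, was at 36.8 to 59.2 CPM in iHPC and 0 in all 6 Mono libraries, at least 139-fold higher in iHPC. Sema4a, a semaphorin that acts on T cells, was at 1.91 to 14.9 CPM in iHPC and 154 to 201 in Mono (log2 fold change -4.26 ± 0.29). Nrp1, a co-receptor for semaphorins and VEGF, was at 17.2 to 105 CPM in iHPC and 121 to 242 in Mono (log2 fold change -2.02 ± 0.42). The netrin thus rose, and the semaphorin and its co-receptor fell.

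Receptors for dying and altered cells changed in both directions. Phosphatidylserine receptors and the proteins that bridge to them gave 7 higher and 5 lower of 14 tested (median 0.72; 24 listed). Mertk, a receptor kinase that binds dying cells through Gas6 or protein S, was at 25.2 to 45.8 CPM (median 35.5) in iHPC and 0 to 9.53 (median 5.78) in Mono (log2 fold change 2.95 ± 0.54). Axl, its relative, was at 75.7 to 212 CPM in iHPC and 33.8 to 62.0 in Mono (log2 fold change 1.63 ± 0.19). Tgm2, a transglutaminase that helps engulfment, was at 156 to 228 CPM in iHPC and 5.27 to 19.2 in Mono (log2 fold change 4.12 ± 0.26). All 3 rose without overlap. Gas6, a ligand of Mertk and Axl, had 2 reads in iHPC and 0 in Mono and was not tested. Mfge8, the bridge between phosphatidylserine and alpha v integrins, was at 0 CPM in all 6 iHPC libraries and 9.23 to 26.2 CPM in Mono, at least 34.5-fold lower in iHPC. Lrp1, a large endocytic receptor that also binds calreticulin on dying cells, was lower, at 33.2 to 119.8 CPM in iHPC and 175 to 250.5 in Mono (log2 fold change -2.02 ± 0.20). Scavenger receptors gave 6 higher and 9 lower of 17 tested (median -0.55; 26 listed). Clec7a, the beta-glucan receptor dectin-1, was at 7.49 to 76.8 CPM in iHPC and 584 to 721 in Mono (log2 fold change -4.62 ± 0.29). Cd36, a receptor for oxidised lipids and dying cells, was at 59.9 to 187 CPM (median 101) in iHPC and 11.9 to 60.4 (median 14.6) in Mono (log2 fold change 2.40 ± 0.41). Its groups overlapped, and the within-mouse difference was -0.011 in mouse 24380 and 1.63 to 3.86 in the others.

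Fc receptors changed in both directions, 5 higher and 4 lower of 10 tested, adaptors included (median -0.042; 14 listed). Fcgr4 was at 1280.1 to 2145 CPM (median 1564) in iHPC and 85.6 to 232 (median 164) in Mono (log2 fold change 3.34 ± 0.20; adjusted p = 7.37e-08). Fcgr3, another activating receptor, was at 127 to 393 CPM in iHPC and 605 to 671 in Mono (log2 fold change -1.59 ± 0.18). Fcgr2b, the inhibitory receptor, was at 22.5 to 148 CPM in iHPC and 515 to 738 in Mono (log2 fold change -2.44 ± 0.25). These 3 genes had no overlap between the groups. On the length-scaled level the means of Fcgr4, Fcgr3 and Fcgr2b were 3557, 363 and 53.1 TPM in iHPC and 373, 1081 and 296 TPM in Mono. By these means Fcgr4 was the highest of the 3 in iHPC and Fcgr3 in Mono. Syk, the kinase downstream of activating Fc receptors, was higher, at 642 to 790.0 CPM in iHPC and 225 to 318 in Mono (log2 fold change 1.35 ± 0.11).

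Inhibitory receptors and signals that restrain phagocytosis were mostly higher, 15 of 25 tested against 4 lower (median 0.61; 29 listed), with 2 lower without mice 24261 and 24380. Cd72, an inhibitory lectin best known from B cells, was at 419 to 1239.7 CPM (median 1126) in iHPC and 2.98 to 61.3 (median 18.0) in Mono (log2 fold change 5.49 ± 0.42; adjusted p = 7.09e-07). Sirpa, the receptor of the don't-eat-me signal CD47, was at 715 to 1651 CPM in iHPC and 409 to 529 in Mono (log2 fold change 0.99 ± 0.14). Cd47 itself was at 863 to 1146 CPM in iHPC and 643 to 704 in Mono (log2 fold change 0.54 ± 0.099). No iHPC library fell within the Mono range for these 3 genes. B cell markers, given below, were also higher in iHPC, and their part in Cd72 was not tested. Receptors of the CD200 family rose together. Cd200r1, the inhibitory member, was at 352 to 548 CPM (median 423) in iHPC and 29.7 to 62.9 (median 46.9) in Mono (log2 fold change 3.19 ± 0.17). Cd200r4, an activating relative, was at 187 to 403 CPM in iHPC and 8.11 to 35.7 in Mono (log2 fold change 4.03 ± 0.26). Cd200r3, another relative that basophils also make, was at 133 to 345 CPM in iHPC and 0 to 0.607 in Mono, a ratio of pooled counts, iHPC over Mono, of 2361 (95% exact counting interval 423 to 93322). In mouse 24261, where basophil transcripts were nearly absent, Cd200r3 stood at 133 CPM. Klra17, a gene of the Ly49 family, was at 206 to 577 CPM in iHPC and 0 to 10.9 in Mono (log2 fold change 6.28 ± 0.27). Pira2, an activating paired immunoglobulin-like receptor, was lower, at 0 to 6.95 CPM in iHPC and 22.4 to 30.6 in Mono (log2 fold change -2.71 ± 0.44). The Cd200r, Klra and Pira genes have near-identical copies, so their counts are uncertain. Genes of the engulfment cytoskeleton gave 8 higher and 8 lower of 28 tested (median 0.10; 32 listed). Dock1, an exchange factor for Rac in engulfment, was lower, at 0 to 11.3 CPM in iHPC and 21.8 to 53.2 in Mono (log2 fold change -4.03 ± 0.71). Vav2, an exchange factor that tyrosine kinases activate, was higher, at 41.2 to 86.1 CPM in iHPC and 4.77 to 20.1 in Mono (log2 fold change 2.52 ± 0.36).

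Genes for handling the contents of engulfed cells followed no single direction. Of 30 iron and heme genes 24 were tested, 11 were higher and 4 lower (median 0.33), and 2 were lower without mouse 24107, 24261 or 24304. Cp, the ferroxidase ceruloplasmin, was at 313 to 520.4 CPM (median 396) in iHPC and 2.91 to 9.76 (median 7.48) in Mono (log2 fold change 5.88 ± 0.22; adjusted p = 2.19e-09). Tfrc, which takes up iron-loaded transferrin, was at 44.7 to 154 CPM in iHPC and 1.17 to 15.8 in Mono (log2 fold change 3.10 ± 0.47). Fth1, the ferritin heavy chain, was at 939 to 2902 CPM in iHPC and 656 to 848 in Mono (log2 fold change 0.98 ± 0.14). Each of the 3 was higher in iHPC without overlap. Erythroid markers, given below, were higher as well, and their part in the iron genes was not tested. Lysosomal proteases and hydrolases were 7 higher and 12 lower of 35 tested (median -0.21; 38 listed), with 4 higher without mouse 24068, 24107 or 24261 and 3 without mice 24261 and 24380. Gaa, which breaks down glycogen, was higher, at 33.7 to 77.4 CPM in iHPC and 7.25 to 31.7 in Mono (log2 fold change 1.71 ± 0.32). Pla2g15, a lysosomal phospholipase, was higher, at 61.7 to 119.8 CPM in iHPC and 27.7 to 43.1 in Mono (log2 fold change 1.22 ± 0.20). Ctsc, the protease that activates granule enzymes, was lower, at 513 to 956 CPM in iHPC and 1755 to 2223 in Mono (log2 fold change -1.37 ± 0.12). None of these 3 had overlapping groups. Lysosomal membrane and proton pump genes were 6 higher and 8 lower of 23 tested (median -0.17; 24 listed). Lamp2, a main protein of the lysosomal membrane, was lower without overlap, at 281 to 529 CPM in iHPC and 795 to 1035 in Mono (log2 fold change -1.15 ± 0.12). Cd63, a tetraspanin of late endosomes and granules that basophils also carry, was at 85.9 to 239.6 CPM in iHPC and 0.901 to 5.36 in Mono (log2 fold change 5.60 ± 0.37). Its within-mouse difference was 3.77 in mouse 24261 and 4.57 to 6.98 in the others.

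Enzymes that degrade DNA and RNA act on the nucleic acids that TLR9 and TLR7 detect. Of 21 listed 15 were tested, 4 were higher and 7 lower (median -0.43). Without mouse 24261 or 24304, 4 were lower. Dnase1l3, a secreted nuclease that clears DNA of dying cells, was at 98.3 to 221 CPM (median 145) in iHPC and 0.901 to 15.2 (median 1.78) in Mono (log2 fold change 5.12 ± 0.48). Pld3, an exonuclease of the lysosome, was at 79.1 to 149 CPM in iHPC and 22.4 to 64.3 in Mono (log2 fold change 1.30 ± 0.25). Samhd1, which also limits the supply of deoxynucleotides, was at 519 to 753 CPM in iHPC and 1286 to 1486 in Mono (log2 fold change -1.21 ± 0.093). The first 2 rose and Samhd1 fell, without overlap. The secreted ribonucleases were lower. Rnase4 was at 0 to 14.8 CPM in iHPC and 151 to 175 in Mono (log2 fold change -4.36 ± 0.32). Ang, which encodes angiogenin, was at 0 to 2.55 CPM in iHPC and 15.3 to 27.5 in Mono (log2 fold change -4.72 ± 0.68). Both share a promoter region and first exons, so reads in those exons cannot be assigned to either. Rnase6, a ribonuclease of phagocytes, had fitted log2 fold changes of -2.13 on day 13, -1.83 on day 21 and -6.47 on day 26. This difference between days missed the threshold (adjusted p = 0.0541 in edgeR's quasi-likelihood test). Day 26 includes the shallow iHPC library of mouse 24380, and a daily value with few or no reads depends on the prior count.

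In lipid metabolism the rise of LXR alpha stood beside lower levels of several genes that LXR activates. Among LXR targets and efflux genes 6 were higher and 11 lower of 22 tested (median -0.49; 23 listed). Abcg1, which exports cholesterol to HDL, was at 189 to 532 CPM (median 248) in iHPC and 25.2 to 42.7 (median 36.1) in Mono (log2 fold change 2.90 ± 0.25). Apoc1, an apolipoprotein gene, was at 0 to 7.49 CPM in iHPC and 15.3 to 34.8 in Mono (log2 fold change -4.02 ± 0.62). Apoc2, its neighbour, was at 29.6 to 108 CPM in iHPC and 183 to 227 in Mono (log2 fold change -1.62 ± 0.21). Abcg1 rose and both apolipoprotein genes fell without overlap. Apoe, another gene of that cluster and the main apolipoprotein of macrophages, was lower with overlapping groups, at 109 to 692 CPM in iHPC and 621 to 763 in Mono (log2 fold change -1.10 ± 0.24; adjusted p = 0.00233). Cholesterol synthesis and uptake genes were 1 higher and 9 lower of 20 tested (median -0.87; 25 listed). Fdft1, which makes squalene, was at 0 to 10.2 CPM in iHPC and 36.0 to 59.5 in Mono (log2 fold change -2.98 ± 0.41).

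Glycolysis genes were more often lower, 12 against 3 higher of 24 tested (median -0.58; 27 listed). Ldhb, a lactate dehydrogenase subunit, was at 0 to 0.850 CPM (median 0) in iHPC and 52.8 to 78.4 (median 66.3) in Mono, a ratio of pooled counts, Mono over iHPC, of 387 (95% exact counting interval 69.2 to 15307). Slc16a3, which exports lactate, had medians of 2.16 CPM in iHPC and 32.8 in Mono (log2 fold change -3.59 ± 0.54). Slc2a6, a hexose transporter, was at 12.8 to 37.4 CPM in iHPC and 169 to 364 in Mono (log2 fold change -3.46 ± 0.19). No iHPC library reached the Mono range for these 3 genes. Pdk1, which inhibits pyruvate dehydrogenase, was higher, at 44.8 to 176 CPM in iHPC and 13.4 to 32.2 in Mono (log2 fold change 2.05 ± 0.35). Its within-mouse difference was 0.47 in mouse 24261 and 1.05 to 3.44 in the others. Nuclear subunits of the respiratory chain and ATP synthase were 23 higher and 9 lower of 58 tested (median 0.33; 59 listed). Without mice 24261 and 24380 the counts were 14 and 10, and without mouse 24068 5 were lower. Cytosolic ribosomal protein genes were 34 higher and 0 lower of 46 tested (median 0.76; 59 listed), with 22 and 0 without mice 24261 and 24380. Rpl15 was at 53.6 to 97.3 CPM in iHPC and 13.5 to 28.7 in Mono (log2 fold change 1.69 ± 0.26). Ribosomal protein genes have many processed copies in the genome, and no source used here says how reads that match several places were counted.

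The phagocyte NADPH oxidase makes superoxide, and the 3 of its subunits named here were lower in iHPC. Of 32 genes of oxidant production and defence 29 were tested, 8 were higher and 12 lower (median -0.028). Ncf4, a cytosolic subunit of the oxidase, was at 59.1 to 143 CPM (median 73.5) in iHPC and 581 to 639 (median 591) in Mono (log2 fold change -2.79 ± 0.18; adjusted p = 1.33e-07). Ncf1, another cytosolic subunit, was at 31.3 to 63.7 CPM in iHPC and 217 to 288 in Mono (log2 fold change -2.53 ± 0.16). Cybb, the catalytic subunit, was at 1089.7 to 1748 CPM in iHPC and 1749.5 to 2062 in Mono (log2 fold change -0.48 ± 0.088). All 3 fell without overlap. Sod1, a superoxide dismutase, was higher, at 152 to 528 CPM in iHPC and 57.6 to 65.8 in Mono (log2 fold change 1.82 ± 0.20). Enzymes and receptors of lipid mediators were 3 higher and 10 lower of 17 tested (median -0.91; 25 listed), with 5 of 18 higher without mice 24261 and 24380. Hpgds, which makes prostaglandin D2, was at 209.7 to 526 CPM (median 370.1) in iHPC and 0 to 4.61 (median 2.12) in Mono (log2 fold change 7.40 ± 0.38; adjusted p = 1.7e-08). Tbxas1, thromboxane synthase, was at 0 to 20.9 CPM in iHPC and 73.2 to 162 in Mono (log2 fold change -3.85 ± 0.46). Ptgir, the prostacyclin receptor, was at 0 to 7.49 CPM in iHPC and 15.8 to 58.3 in Mono (log2 fold change -4.78 ± 0.57). Hpgds rose and the other two fell without overlap. Mast cells also make Hpgds. Its within-mouse difference in mouse 24261 was 8.41, against 6.24 to 8.42 in the others.

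Antigen presentation genes were lower in 8 and higher in 4 of 17 tested cases (median -0.46; 18 listed), with 5 lower without mouse 24308. Mouse 24107 went the other way, with a median within-mouse difference of 0.35 and 11 members higher against 6 lower. In the other mice that median was -0.12 to -0.82. Ciita, the master regulator of MHC class II, was at 2.86 to 37.4 CPM (median 15.4) in iHPC and 80.2 to 142 (median 116) in Mono (log2 fold change -3.02 ± 0.39; adjusted p = 3.83e-05). H2-DMb1, a chain of the peptide-loading factor, was at 52.4 to 179.9 CPM in iHPC and 382 to 443 in Mono (log2 fold change -1.69 ± 0.19). Both fell without overlap. H2-Ab1, a class II chain, was at 318 to 1180.1 CPM in iHPC and 978 to 1252 in Mono (log2 fold change -0.64 ± 0.20; adjusted p = 0.0201). Its groups overlapped, and the call was lost without mouse 24308 and without the filter on low counts. It was also lost without mice 24261 and 24380 (log2 fold change -0.39). Co-stimulatory and co-inhibitory ligands were 7 higher and 8 lower of 19 tested (median -0.12; 25 listed). Cd40, which receives help from T cells, was at 12.4 to 28.7 CPM (median 16.5) in iHPC and 230.1 to 308 (median 264) in Mono (log2 fold change -3.86 ± 0.19; adjusted p = 1.64e-08). Icosl, the ligand of ICOS, was at 0.954 to 9.35 CPM in iHPC and 19.4 to 56.5 in Mono (log2 fold change -3.09 ± 0.48). Cd80, a CD28 ligand, was at 0 to 10.3 CPM in iHPC and 11.9 to 29.7 in Mono (log2 fold change -2.50 ± 0.55). These 3 fell without overlap, while Cd86, the other CD28 ligand, was higher with overlapping groups. Cd86 was at 119.8 to 332 CPM in iHPC and 114 to 174 in Mono (log2 fold change 0.62 ± 0.17). The PD-1 ligands, which restrain T cells, both rose without overlap. Pdcd1lg2, the PD-L2 gene, was at 126 to 195 CPM (median 169.9) in iHPC and 0.607 to 6.99 (median 2.54) in Mono (log2 fold change 5.81 ± 0.34). Cd274, the PD-L1 gene, was at 209.7 to 291 CPM in iHPC and 53.2 to 81.7 in Mono (log2 fold change 1.96 ± 0.13).

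Complement genes were 4 higher and 5 lower of 12 tested (median -0.16; 27 listed). C1qa, a chain of the recognition protein C1q, was at 262 to 662 CPM in iHPC and 10.1 to 37.8 in Mono (log2 fold change 4.26 ± 0.28). C3, the central component, was at 6.87 to 44.9 CPM (median 13.4) in iHPC and 476 to 806 (median 539) in Mono (log2 fold change -5.24 ± 0.23; adjusted p = 7.53e-09). C1qa rose and C3 fell without overlap. Coagulation and provisional matrix genes were 2 higher and 13 lower of 16 tested (median -3.48; 28 listed). F10, the clotting factor X gene, was at 4.35 to 15.0 CPM (median 7.77) in iHPC and 308 to 487 (median 370.0) in Mono (log2 fold change -5.63 ± 0.20; adjusted p = 1.66e-09). Plaur, the urokinase receptor, was at 7.49 to 57.0 CPM in iHPC and 456 to 589 in Mono (log2 fold change -4.12 ± 0.27). Lox, which crosslinks collagen and elastin, went the other way, at 48.0 to 217 CPM in iHPC and 0 to 0.607 in Mono, a ratio of pooled counts, iHPC over Mono, of 1023 (95% exact counting interval 183 to 40454). Groups were apart for these 3 genes. Extracellular proteases and inhibitors were 5 higher and 8 lower of 17 tested (median -0.34; 29 listed). Hpse, the heparanase gene, was lower, at 0 to 11.5 CPM in iHPC and 257 to 305 in Mono (log2 fold change -5.78 ± 0.30). Mmp14, a membrane-bound matrix protease, was higher, at 36.5 to 378 CPM in iHPC and 3.66 to 18.6 in Mono (log2 fold change 2.71 ± 0.41).

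Survival genes were close to the background, 4 higher and 3 lower of 14 tested BCL2 family genes (median -0.03; 20 listed). Within the family Bcl2, the founding survival gene, was at 242 to 382 CPM (median 265) in iHPC and 4.85 to 17.3 (median 13.6) in Mono (log2 fold change 4.49 ± 0.23; adjusted p = 1.7e-08). Bcl2l1, the BCL-XL gene, was at 18.8 to 228 CPM in iHPC and 8.50 to 23.2 in Mono (log2 fold change 1.93 ± 0.43). Bid, which passes on death receptor signals, was at 11.2 to 59.8 CPM in iHPC and 209.9 to 279 in Mono (log2 fold change -2.57 ± 0.20). Mcl1, on which many myeloid cells depend, was not called (log2 fold change -0.18) but was called lower without mouse 24380 (-0.31). Receptors of the lectin, MS4A, CD300 and TREM families gave 13 higher and 12 lower of 29 tested (median 0.074; 37 listed). Ms4a7, a membrane protein of macrophages, was at 292 to 544 CPM in iHPC and 20.7 to 74.4 in Mono (log2 fold change 3.26 ± 0.19). Ms4a8a, of the same family, was at 0 to 4.77 CPM in iHPC and 193 to 273 in Mono (adjusted p = 5.11e-09). Clec10a, a galactose-binding lectin, was at 0 to 5.73 CPM in iHPC and 56.8 to 101 in Mono (log2 fold change -5.93 ± 0.58). Members of one family thus lay at opposite ends without overlap. Receptors and enzymes of extracellular nucleotides were 5 higher and 6 lower of 14 tested (median -0.066; 20 listed). P2ry2, a receptor for ATP and UTP, was higher, at 16.0 to 66.8 CPM in iHPC and 0 to 9.01 in Mono (log2 fold change 3.75 ± 0.76). Adora2b, an adenosine receptor, was lower, at 0 to 11.1 CPM in iHPC and 95.9 to 161 in Mono (log2 fold change -4.43 ± 0.37). Immediate early genes, which cell isolation can also induce, were 8 higher and 12 lower of 26 tested (median -0.08; 29 listed). Fos was lower, at 348 to 446 CPM in iHPC and 929 to 1365 in Mono (log2 fold change -1.47 ± 0.12). Egr1 was higher, at 13.2 to 149 CPM in iHPC and 4.27 to 17.0 in Mono (log2 fold change 2.35 ± 0.40).

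Transcripts of other cells were present and differed between the populations. The summed level of 18 basophil, mast cell and eosinophil markers was 3785, 5438, 3140.5, 3827 and 4662 CPM in the iHPC of mice 24068, 24107, 24304, 24308 and 24380. In mouse 24261 it was 166 CPM, and in Mono it ran from 10.4 to 26.1 CPM. Mcpt8, a protease of basophils, held 0.954 CPM in that iHPC library and 728 to 2138 CPM in the other 5. Cpa3, Fcer1a, Ms4a2 and Gata2 were at 0 there. The filter on low counts asks for a minimum level in at least 6 of the 12 libraries, and it kept 3 of the 18 markers, Hdc, Cd200r3 and Il6, all called higher. Cd200r3 alone held 133 of the 166 CPM in mouse 24261. Without mouse 24261, 10 were tested and 10 called higher. The calls were made with this mouse in the fit, so the counts that follow describe it and test nothing. In mouse 24261 2393 of 2443 genes called higher were higher and 2511 of 2555 called lower were lower. The median differences of these genes were 1.02 and -1.17, against 1.09 and -1.30 over the other 5 mice. Hdc, which makes histamine and is a basophil marker, was called higher (log2 fold change 3.39) but stood at 1.91 CPM in that iHPC library. Ctsg, a granule protease of myeloid precursors, was called higher as well (log2 fold change 3.88) and was at 0 there.

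Erythroid markers summed to 1322 to 4002 CPM in iHPC and 488 to 861 CPM in Mono. Of 12 tested markers 10 were higher and 1 lower (median log2 fold change 3.64; 26 listed). Slc4a1, the red cell anion exchanger, was at 8.34 to 149.8 CPM (median 48.7) in iHPC and 0 to 1.80 (median 0) in Mono, a ratio of pooled counts, iHPC over Mono, of 138 (95% exact counting interval 46.8 to 674). Nfe2, a factor of erythroid and megakaryocytic cells, was the one that fell, at 13.9 to 52.2 CPM in iHPC and 368 to 432 in Mono (log2 fold change -3.66 ± 0.23). The Mono sum of the erythroid list includes Nfe2. Megakaryocyte and platelet markers summed to 837 to 1164 CPM in iHPC and 466 to 654 CPM in Mono. Of 6 tested, 5 were higher and 1 lower (median log2 fold change 5.40; 18 listed), and this sum also includes the lower one. RNA of engulfed, attached or co-sorted cells and RNA made by the sorted cells cannot be told apart in bulk libraries. B cell markers summed to 790.0 to 1466 CPM in iHPC and 578 to 857 CPM in Mono, and 3 of 5 tested were higher (19 listed). Neutrophil markers summed to 292 to 1782 CPM and 353 to 1982 CPM, with 2 higher and 3 lower of 7 tested (15 listed), and 1 higher without mouse 24068, 24107 or 24380. The neutrophil sum was highest in the mice of day 26 in both populations. S100a8, a neutrophil and monocyte alarmin, was not called, at 2.78 to 472 CPM in iHPC and 63.3 to 226 in Mono (log2 fold change -0.92 ± 0.61; adjusted p = 0.229). Without mice 24261 and 24380 it was called lower (log2 fold change -2.14).

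Dendritic cell markers were 4 higher and 5 lower of 11 tested (21 listed). Xcr1, of type 1 dendritic cells, was higher, at 23.5 to 122 CPM in iHPC and 1.32 to 7.28 in Mono (log2 fold change 3.99 ± 0.38). Cd209a, of monocyte-derived dendritic cells, was lower, at 0 to 40.1 CPM (median 0) in iHPC and 41.9 to 382 (median 189) in Mono (log2 fold change -5.25 ± 1.01). T and NK cell markers summed to 695 CPM in the iHPC of mouse 24107, 9.54 to 149.8 CPM in the other 5 and 4.85 to 76.8 CPM in Mono. Of 20 listed 1 was tested and called higher, namely Nkg7, a granule protein of cytotoxic cells. Its within-mouse difference was above 0 in 4 mice and was -4.04 and -1.49 in mice 24261 and 24380. The call was lost without mouse 24107, 24304 or 24308, in DESeq2, without the filter and with all 30 libraries and the block, and no marker of this list was called without mouse 24068. Plasma cell markers were 2 higher and 2 lower of 4 tested (9 listed), with 1 higher without mouse 24068, 24107, 24261 or 24304. Endothelial markers were 1 higher and 1 lower of 2 tested (19 listed) and summed to 52.7 to 156 CPM in iHPC and 17.0 to 58.3 CPM in Mono. The higher one, Esam, an adhesion molecule, was at 42.4 to 144 CPM in iHPC and 0 to 1.22 in Mono. The lower one, Flt1, a receptor for VEGF, was at 0 to 4.17 CPM in iHPC and 8.11 to 44.9 in Mono. Of the markers that define endothelium, Cdh5 and Tie1 held at most 1 read per population. Esam and Flt1 were named after their values were seen. Stromal markers were 0 higher and 1 lower of 1 tested (12 listed), and Col1a1 and Pdgfra, which define stroma, were at 0 in both populations.

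**Figure D5:**
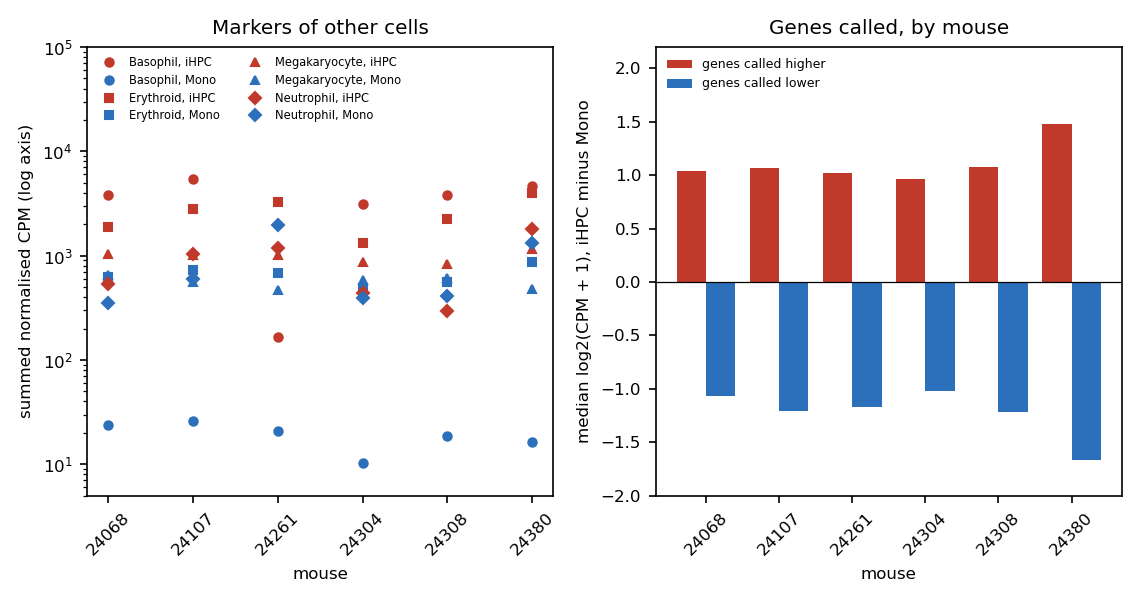
Left, summed normalised CPM of 4 marker lists in the iHPC (red) and Mono (blue) library of each of 6 mice, on a log axis. Right, the median within-mouse difference of log2(CPM + 1) over the 2443 genes called higher and the 2555 called lower: mouse 24261, whose iHPC hold the fewest basophil transcripts, has medians of 1.02 and -1.17.

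The calls rest on these 6 mice, so the counts of mice and days that follow describe the called genes and are no separate test. Of the genes called, 2083 of 2443 were higher in 6 of 6 mice and 2239 of 2555 lower in 6 of 6. Differences were widest in mouse 24380, with medians of 1.48 and -1.67, and 2284 and 2455 of these genes had their called direction there. No gene's population difference differed between collection days at an adjusted p under 0.05 in edgeR's quasi-likelihood test (0 of 9843, 0.0%). At an unadjusted p under 0.05 in that test 312 of 9843 did, with 2 mice a day. This is a smaller share than the 0.05 that chance alone would place there. The fitted difference had the same sign on all 3 days for 4972 of 4998 called genes. Among the genes with the smallest p between days was Emb, which encodes embigin, a glycoprotein of monocyte precursors. Its log2 fold change was -3.92 on day 13, -4.42 on day 21 and -9.95 on day 26 (adjusted p = 0.0541 in that test). Each daily value rests on 2 mice, and those of day 26 are the mice whose iHPC libraries stood apart. Where a group has few or no reads on a day, such a value depends on the prior count. Age varied between the days and within day 26, and its part was not tested.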

How the data were processed

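Libraries were made from sorted cells with SMART-Seq v4 and Nextera XT, per the labels' protocols. Per the submitters' processing notes the tools included TopHat with Bowtie, HTSeq 0.4.1 and CASAVA 1.8.2, beside SAMtools, Picard and FastQC, and the build was NCBIM37, with no roles stated. The authors deposited 1 table of raw counts per gene, with 37991 identifiers, of which 20439 held any count. No source used here gives the annotation release, strand setting or handling of duplicate reads. Symbols (32919 identifiers, 99.11% of counts) and exon lengths came from GENCODE M21, of another build, so length-scaled levels are approximate.

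The 12 libraries were fitted in edgeR 4.0.16 (R 4.3.3) with the robust quasi-likelihood test, two-sided, TMM scaling, filterByExpr and the mouse as a block, and the 3 collection days were compared in the same way. Both libraries of a number come from 1 animal, so they are paired by origin; their deviations from the group means correlated at -0.00686 to 0.0871. Alternatives were DESeq2 1.42.0, other scalings, filters and fits, thinned counts and each mouse left out. Leaving out genes of high read density, or mice 24261 and 24380 together, was chosen after seeing the data. The fit was tested on simulated data.

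The members and the 53 gene lists were chosen with earlier results of these data known. By rule, genes named are marked list members, up to 4 called members of a list with the largest changes and some against them at 20 mean CPM or more, the largest changes in every mouse or per length, and the genes most variable between mice or days. From these the text gives a selection made with the values in view. Promoters are from RefSeq, build GRCm38.p6.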

Additional observations from a re-analysis of the deposited data

Results flagged for a closer look

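The within-mouse difference of log2(CPM + 1), iHPC minus Mono, was compared between the 6 mice by Dixon's ratio of the gap to the whole range. For 26 of the 207 genes named in the text, 1 mouse lay far from the other 5. Chance alone places about 1 in 20 genes there if their values are normal and the genes were not picked for their spread. The rule for naming genes includes those most variable between mice or days, so that rate does not hold for this set. Mouse 24380, whose iHPC library was the shallowest, was the distant one for 13 of them. Its difference was the highest for Fcgr4 (4.63), Wfdc17 (2.05), Ms4a6c (1.14), Pla2g15 (1.93), Sod1 (2.99), Maf (4.29), Mcl1 (0.34), mt-Rnr1 (3.30) and mt-Rnr2 (2.86). It lay apart for Cdkn1a (-7.75), Rfc5 (-6.21), Ptgir (-1.81) and Tfec (-2.96) as well. Mouse 24261, whose iHPC library lacked basophil transcripts, stood apart for Ctsg (-2.80), Il6 (0.85), Dusp16 (7.47) and Sema4a (-6.05). Mouse 24068 stood apart for Adamdec1 (8.32), Pecam1 (6.80) and Ccnd2 (5.69). Mouse 24107 did so for Clec10a (-3.24), Cd209a (-0.061) and Samhd1 (-0.93), and mouse 24304 for Irf4 (-4.36) and Slc4a1 (3.22). For Negr1 it was mouse 24308 (6.46).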

How the results depend on the processing

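Every alternative kept the sign of all calls that it tested. In counts thinned to 292507 per library, 1625 genes were called higher and 1636 lower, of 6404 tested, against 2443 and 2555 of 9843. Leaving out each mouse in turn gave 2095 to 2571 higher and 2217 to 2742 lower calls, the most without mouse 24380. Without the replicate block, which drops the pairing by mouse, 2691 genes were higher and 2644 lower, and 4915 of the 4998 calls were kept. With all 30 libraries in the fit, 1965 and 2114 were called with the block, and Rfc5, Pold1, Top2a, Nkg7 and the genes named so above lost their calls in at least 1 such fit. With DESeq2's size factors in edgeR the collection day test called 1 gene rather than 0. Across these settings 46.1% to 50.4% of calls were higher. Genes that were not called turned in sign as follows, and the cause was not tested. Ifit3 had a log2 fold change of -0.048 in thinned counts and -0.041 without mouse 24107, and leaving out each mouse in turn gave -0.041 to 0.37. S100a8 had 0.0028 without the block and 0.061 with all 30 libraries and no block. Ifit1 lost its call without the block (adjusted p = 0.113 in edgeR's test, 0.0502 to 0.247 over the alternatives that lost it). Tlr7 was called higher in thinned counts (log2 fold change 0.26). The shallow iHPC library of mouse 24380 limits what can be seen of genes at a few CPM.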
